A study of Homo sapiens with 6 samples.

Results

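The 10 genes described here are widely used as transcriptional targets of YAP and TAZ: ANKRD1, CRIM1, MYOF, CCN1 (older symbol CYR61), CCN2 (older symbol CTGF), AMOTL2, AXL, AJUBA, LATS2 and PTPN14. They were picked by symbol from the 57659 genes of the count files, and all 10 were found there by Ensembl identifier. The list was put forward with the fold changes of these same libraries already known, so the members' values in the comparison of knockdown with control are given as a description. All 10 had enough reads to enter the fit over 13445 genes.

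RNA was sequenced from IMR90 cells, a line of primary human fetal lung fibroblasts grown in medium with serum, in 6 libraries. In 3 libraries the cells expressed a short hairpin RNA (shRNA) against macroH2A1, an H2A-type histone that carries a macro domain. In the other 3 libraries they expressed an shRNA against luciferase, an insect gene with no human counterpart, which serves as the control. Both groups therefore carry a hairpin, and the number of different hairpins used against macroH2A1 is not given in the sources used here. The series calls the libraries of a group biological replicates without saying whether they came from separate cultures, so the tests measure the spread between these libraries.

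YAP (gene YAP1) and TAZ (gene WWTR1) are transcriptional co-activators that do not bind DNA themselves and reach their targets mainly through the TEAD family of DNA-binding proteins. The Hippo kinases hold them in check: MST kinases activate LATS kinases, which phosphorylate YAP and TAZ and keep them out of the nucleus. In fibroblasts YAP and TAZ respond to stiffness, spreading and serum, and their targets include secreted matricellular proteins and receptors as well as genes that act on the pathway itself. The libraries report RNA only, so the phosphorylation and location of YAP and TAZ were not measured.

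The promoters of the best known members show where TEAD proteins can bind, through the element GGAATG or its reverse complement CATTCC. In the RefSeq promoter table (build GRCh38.p14, windows of 250 bases before to 50 after an annotated start) 8 of the 10 members had 11 windows; CRIM1 and CCN1 had none. The 250 bases before the starts of CCN2 (chr6:131951373-131951622, minus strand) and ANKRD1 (chr10:90921088-90921337, minus strand) are shown because their elements are the most numerous among the members, and the capitals mark each element.
CCN2: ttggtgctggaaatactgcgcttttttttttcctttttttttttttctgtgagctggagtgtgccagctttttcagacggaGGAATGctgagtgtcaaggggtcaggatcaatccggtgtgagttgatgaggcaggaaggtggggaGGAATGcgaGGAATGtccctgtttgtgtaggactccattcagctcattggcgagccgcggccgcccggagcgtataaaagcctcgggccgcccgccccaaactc
ANKRD1: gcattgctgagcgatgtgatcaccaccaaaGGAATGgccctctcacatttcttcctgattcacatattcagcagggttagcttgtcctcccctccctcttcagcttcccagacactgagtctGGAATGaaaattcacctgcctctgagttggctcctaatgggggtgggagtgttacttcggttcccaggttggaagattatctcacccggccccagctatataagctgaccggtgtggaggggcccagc

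The CCN2 window held 3 copies of the element, whose first bases lie 169, 104 and 95 bases before the start, all reading along the gene. The ANKRD1 window held 2 copies, 220 and 128 bases before the start, also reading along the gene. Another 5 members had 1 copy each, shown with 12 bases on either side for comparison. AMOTL2 (chr3:134374499-134374528, minus strand), AXL (chr19:41226531-41226560, plus strand) and PTPN14 (chr1:214551785-214551814, minus strand) carried it on the strand opposite to the gene. AJUBA (chr14:22976884-22976913, minus strand) and LATS2 (chr13:21061560-21061589, minus strand) carried it on the gene's own strand, in LATS2 9 bases after the start.
AMOTL2: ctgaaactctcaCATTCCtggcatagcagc
AXL: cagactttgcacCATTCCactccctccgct
AJUBA: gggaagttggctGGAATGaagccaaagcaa
LATS2: cgtgacgcccgtGGAATGccaacaatgtag
PTPN14: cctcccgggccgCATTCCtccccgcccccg

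In all, 7 of the 11 member windows (63.6%) held the element on either strand, against 4928 of 35116 windows of the table (14.0%). Counted per gene, these were 7 of 8 members with a window and 4567 of 27305 genes. Windows with at least 3 copies made up 0.128% of the table. The pattern TGANTCA takes any base in the middle. It is looser than the AP-1 element, which has G or C there and is often bound near TEAD proteins. The pattern reads the same on both strands. It was in 1 member window, that of ANKRD1, and in 7.71% of all windows. In the ANKRD1 bases shown above it matched as TGATTCA, with T in the middle, and does not overlap the TEAD-type elements. The MYOF window held neither the TEAD-type element nor this pattern. For AMOTL2, AXL and AJUBA, the TEAD-type element stood in the second of 2 windows. A match is a description of the letters and does not show binding in these cells.

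**Figure D1:**
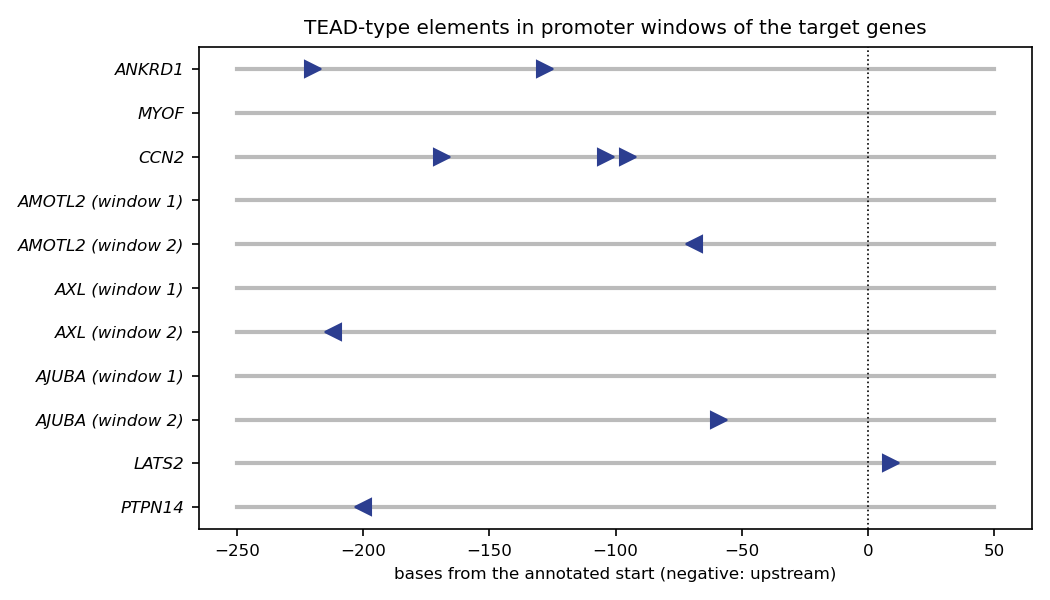
Positions of the element GGAATG in the promoter windows of 8 target genes. The horizontal axis gives bases from the annotated start, arrows pointing right mark copies on the gene's own strand and arrows pointing left copies on the opposite strand; CCN2 holds 3 copies, ANKRD1 2, and MYOF none.

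The libraries held 3741087 to 5322851 gene counts with the macroH2A1 shRNA and 3744716 to 6421605 with the luciferase shRNA. MACROH2A1 itself was at 38.6, 43.4 and 39.6 CPM (reads of a gene scaled to a common library total, with TMM as the factor for library composition) in the knockdown and at 91.3, 87.3 and 84.2 CPM in the control, so 46.3% of the control level remained (log2 fold change -1.11, SE 0.08). The summed level of 10 fibroblast markers ran from 11900 to 12600 CPM in the knockdown and from 7440 to 8490 CPM in the control. With edgeR 5 of the 10 were higher at an adjusted p under 0.05 (COL1A2, COL3A1, DCN, LUM and PDGFRA), where 3.90% of all genes tested were. VIM averaged 1701.5 CPM in the knockdown and 1700.8 CPM in the control. THY1 had a log2 fold change of 0.08 and FAP of -0.14, and neither passed. The 11 epithelial markers summed to 7.85 to 12 CPM in the knockdown and 27.4 to 29.5 CPM in the control, nearly all from KRT8 and KRT18 (KRT18 was lower, edgeR adjusted p = 0.0108), and 9 of the 11 had at most 10 counts over all libraries, EPCAM, CDH1 and SFTPC among them. The 6 endothelial markers summed to 142 to 148 CPM in the knockdown and 66.6 to 71.9 CPM in the control, most of it TEK. TEK averaged 131.0 ± 4.81 CPM in the knockdown and 61.8 ± 2.05 CPM in the control (SD, n = 3 each, edgeR adjusted p = 0.000818). KDR had 111 counts in the knockdown and 5 in the control (edgeR adjusted p = 0.00126), FLT1 did not pass, PECAM1 had no counts in any library and CDH5 had 1. The 5 blood markers summed to 13.3 to 16.2 CPM in the knockdown and 13.7 to 18.1 CPM in the control, with CD3E at 0. The 2 smooth muscle markers MYH11 and DES summed to 7.77 to 14.3 CPM in the knockdown and 6.12 to 14.1 CPM in the control. Of 3 mesothelial markers, MSLN had no counts and UPK3B had 67 counts in knockdown replicate 2 and at most 2 in any other library. The part of these shifts in the results below was not tested, and in bulk RNA fewer cells of a type and less RNA per cell cannot be told apart.

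The 10 target genes did not move as a block. ANKRD1, CRIM1 and MYOF were lower in the knockdown and passed the threshold over all genes (quasi-likelihood test of edgeR, p under 0.05 after Benjamini-Hochberg adjustment). CCN2 was higher and passed it, and the remaining 6 did not pass. That gives 4 called members, where 8.21% of all 13445 genes tested were called. Of them 3 were lower, where 4.31% of all genes were, and 1 was higher, where 3.90% were. Because the members were chosen with this contrast known, nothing is read from these shares. The median log2 fold change over the 10 members was -0.21, and over all genes tested it was 0.01.

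**Figure D2:**
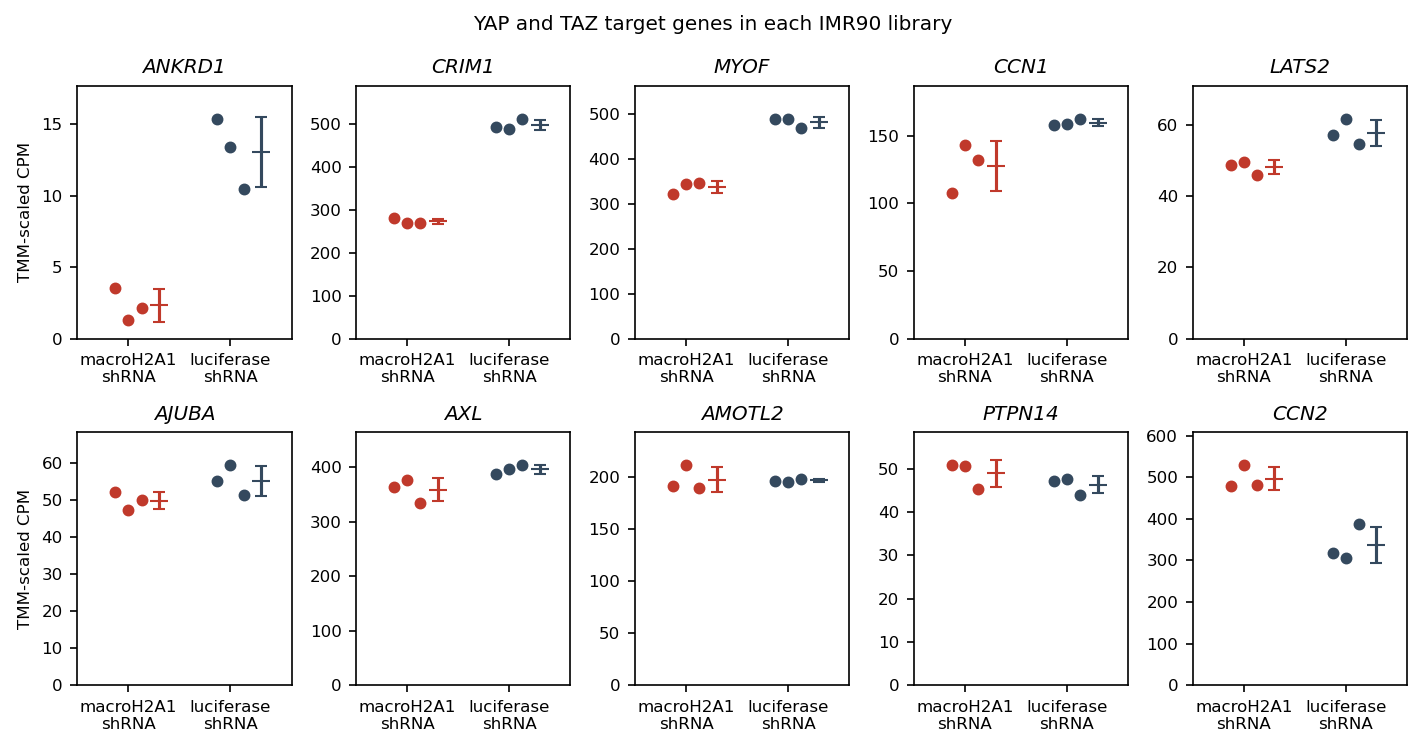
TMM-scaled CPM of the 10 target genes in each library, macroH2A1 shRNA in red at the left and luciferase shRNA in dark blue at the right, with the mean and SD of 3 libraries beside the points. The vertical axes start at 0 and differ between panels; ANKRD1, CRIM1 and MYOF lie lower in every knockdown library, CCN2 higher, and AMOTL2 at about 197 CPM in both groups.

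ANKRD1 (ENSG00000148677, chromosome 10) encodes an ankyrin repeat protein known from stretched heart muscle that is found both in the nucleus and at the sarcomere. It had 18, 6 and 8 counts in the knockdown libraries and 98, 59 and 40 in the control libraries, which is 3.53, 1.29 and 2.13 CPM in the knockdown against 15.4, 13.4 and 10.5 CPM in the control. Every knockdown library was below every control library. The fitted log2 fold change was -2.47 (SE 0.34) or a 5.55-fold lower level. From the summed counts, 32 in the knockdown and 197 in the control, the gene was 5.69-fold lower with an exact 95% interval of 3.90 to 8.55, which covers counting error only. The fold change of this low gene was the least steady among the members: without knockdown replicate 1 it was -2.95 on the log2 scale and without knockdown replicate 2 it was -2.18.

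CRIM1 (ENSG00000150938, chromosome 2) encodes a membrane protein with cysteine-rich repeats that binds bone morphogenetic proteins. It stood at 280.4, 269.0 and 268.6 CPM in the knockdown and at 492.6, 488.5 and 511.5 CPM in the control. The knockdown libraries were nearly alike and all far below the controls, with a log2 fold change of -0.87 (SE 0.07) and 54.8% of the control level left. CRIM1 was also the steadiest of the members that fell, with log2 fold changes of -0.88 to -0.85 whichever library was left out.

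MYOF (ENSG00000138119, chromosome 10) encodes myoferlin, a membrane protein of the ferlin family that acts in membrane fusion and repair. Its level was 323.1, 344.1 and 347.0 CPM in the knockdown against 489.3, 488.7 and 468.2 CPM in the control. The groups did not overlap, and the log2 fold change was -0.51 (SE 0.07), or 70.1% of the control level. MYOF therefore fell less than CRIM1: the ratio of MYOF to CRIM1, each per kilobase of exon, was 0.969, 1.08 and 1.09 in the knockdown libraries and 0.835, 0.841 and 0.769 in the control libraries. A ratio of this kind does not depend on how libraries are scaled.

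CCN1 and CCN2 are secreted matricellular proteins of the CCN family, and both are among the usual reporters of YAP and TAZ activity. CCN2 (ENSG00000118523, chromosome 6), known as connective tissue growth factor, had 480.1, 528.9 and 482.5 CPM in the knockdown against 319.2, 306.2 and 387.7 CPM in the control. All knockdown libraries were above all control libraries, with control replicate 3 the closest, and the log2 fold change was 0.56 (SE 0.11), a 1.47-fold higher level. The call was lost in 5 of the 6 fits that left out a library, with log2 fold changes of 0.59, 0.51 and 0.58 without knockdown replicate 1, 2 and 3 and of 0.53 and 0.49 without control replicate 1 and 2; it held without control replicate 3, at 0.67. An antisense gene overlaps 8.34% of the merged exons of CCN2, and since the strand setting of the counting is not given in the sources used here, reads of the pair cannot be told apart there.

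CCN1 (ENSG00000142871, chromosome 1) went the other way without passing the threshold. It had 107.5, 143.2 and 132.1 CPM in the knockdown and 157.9, 159.0 and 162.5 CPM in the control, with a log2 fold change of -0.32 (SE 0.11). The knockdown libraries were spread out, at a coefficient of variation of 14.3% where counting error alone gives 4.22%. For the control libraries it was 1.53%, below the 3.67% that counting error alone gives. Knockdown replicate 2 was the closest to the controls and knockdown replicate 1 the lowest. The ratio of CCN2 to CCN1, each per kilobase of exon, was 4.69, 3.88 and 3.84 in the knockdown libraries and 2.12, 2.02 and 2.50 in the control libraries, so CCN2 gained on CCN1 in every knockdown library.

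AXL (ENSG00000167601, chromosome 19) encodes a receptor tyrosine kinase whose ligand is GAS6. It had 364.5, 377.3 and 335.1 CPM in the knockdown and 387.3, 396.9 and 403.2 CPM in the control. The ranges did not overlap, with knockdown replicate 2 just under control replicate 1, and the log2 fold change of -0.14 (SE 0.08) did not pass.

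The other 4 members act on the pathway they are targets of, and none of them passed the threshold, with log2 fold changes of -0.26 to 0.08. LATS2 (ENSG00000150457, chromosome 13), the kinase that phosphorylates YAP and TAZ, had 48.9, 49.6 and 46.0 CPM in the knockdown and 57.3, 61.7 and 54.5 CPM in the control. Its groups did not overlap (log2 fold change -0.26, SE 0.08). AMOTL2 (ENSG00000114019, chromosome 3), an angiomotin family protein that binds YAP and holds it outside the nucleus, had 190.7, 210.7 and 189.5 CPM in the knockdown against 196.0, 195.3 and 197.7 CPM in the control, ranges that overlapped. Knockdown and control means were 197.0 ± 11.95 and 196.3 ± 1.23 CPM (SD, n = 3 each), and the fold change was 0.005 on the log2 scale (SE 0.07), which turned to -0.04 without knockdown replicate 2 and to -0.01 with DESeq2.

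PTPN14 (ENSG00000152104, chromosome 1), a phosphatase that binds YAP and keeps it in the cytoplasm, had 50.8, 50.7 and 45.4 CPM in the knockdown and 47.2, 47.6 and 44.0 CPM in the control. These ranges overlapped (log2 fold change 0.08, SE 0.08). AJUBA (ENSG00000129474, chromosome 14), a LIM domain protein that binds LATS kinases and restrains them, had 52.2, 47.5 and 49.95 CPM in the knockdown and 55.1, 59.4 and 51.4 CPM in the control. Its ranges overlapped as well (log2 fold change -0.15, SE 0.08). A value that misses the threshold does not show that the groups were equal.

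**Figure D3:**
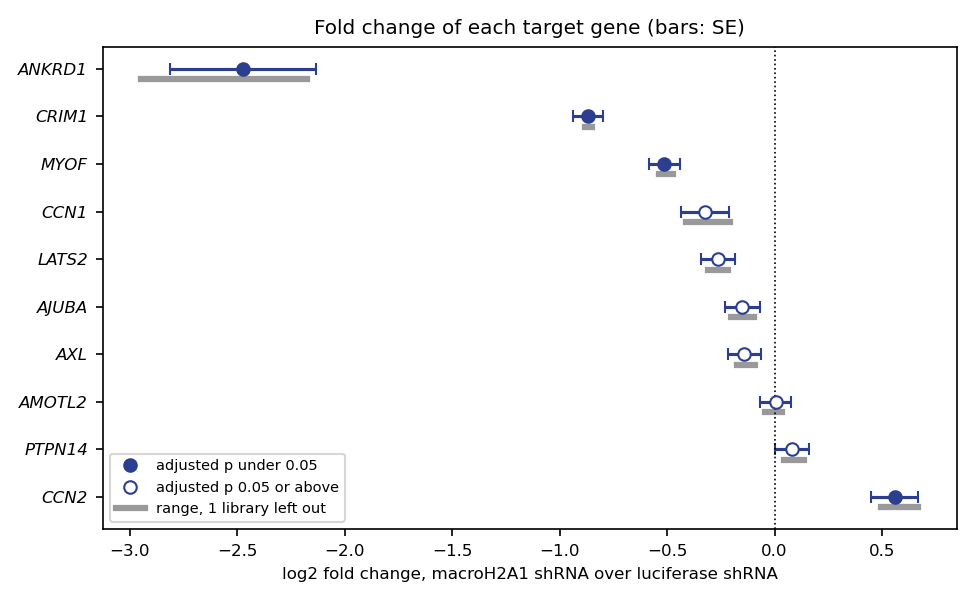
Log2 fold change of each target gene, macroH2A1 shRNA over luciferase shRNA (horizontal axis), as points with SE, filled where the adjusted p over all genes was under 0.05. Grey bars give the range when 1 library is left out; they stay on 1 side of 0 for every gene but AMOTL2 and run from -2.95 to -2.18 for ANKRD1.

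By ranges alone, 7 members had no overlap between groups, where 30.4% of all genes tested had none. Of these 6 were lower in the knockdown, where 15.9% of all genes were, and CCN2 was higher, where 14.5% were. AMOTL2, AJUBA and PTPN14 overlapped. Within the knockdown group, replicate 2 had the highest value for 5 members, namely CCN1, CCN2, AMOTL2, AXL and LATS2, and replicate 3 the lowest for 5. Within the control group replicate 3 was highest for 5 members and lowest for the other 5. The SD exceeded counting error for 6 of the 10 members in each group, so the rest varied no more than the depth itself allows.

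By level, the members covered a wide range. CCN2 was the most abundant per exon length, at 213 CPM per kilobase in the knockdown and 144 in the control. In the control it was followed by AXL at 76.8, CRIM1 at 69.9, CCN1 at 65.1 and MYOF at 56.9 CPM per kilobase, and then by AMOTL2 at 32.8. In the knockdown the order after CCN2 was AXL at 69.6, CCN1 at 52.0, MYOF at 39.9, CRIM1 at 38.3 and AMOTL2 at 32.9, so CRIM1 dropped below CCN1 and MYOF. LATS2 and AJUBA were neighbours at 8.63 and 8.34 CPM per kilobase in the knockdown and 10.4 and 9.25 in the control. ANKRD1 had 1.17 in the knockdown and 6.61 in the control, and PTPN14 had 2.61 in the knockdown and 2.47 in the control. Among neighbours in these orders, LATS2 and AJUBA overlapped between libraries in both groups, and MYOF and CRIM1 did in the knockdown. Lengths are merged exons of a newer annotation than the one counted on; that of PTPN14, 18756 bases, is long and lowers its value per length. In the control 5 of the members, CCN2, AXL, CRIM1, CCN1 and MYOF, lay above 92.5% or more of tested genes per length, and PTPN14 above 34.7%.

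**Figure D4:**
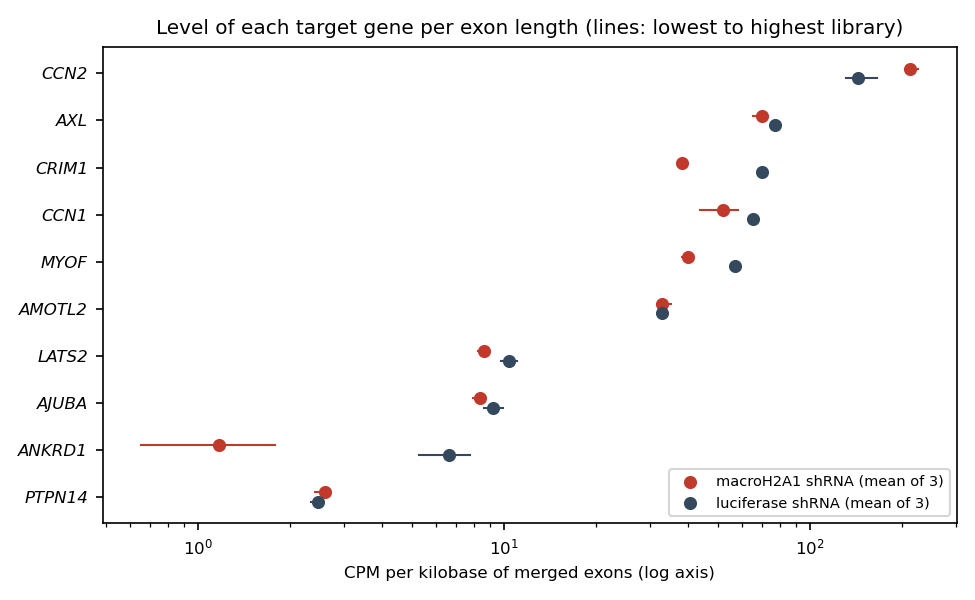
Level of the 10 target genes as CPM per kilobase of merged exons (log axis), mean of 3 libraries with the macroH2A1 shRNA in red and with the luciferase shRNA in dark blue; lines run from the lowest to the highest library. CCN2 is the highest in both groups, and ANKRD1 is separated the furthest between groups, at 1.17 with the macroH2A1 shRNA and 6.61 with the luciferase shRNA.

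The authors' deposited table gave the same directions for the called members. The log2 ratios of knockdown over control in the authors' deposited table were -2.49 for ANKRD1, -0.86 for CRIM1, -0.50 for MYOF and 0.57 for CCN2. In the authors' deposited table the adjusted p was also under 0.05 for CCN1, at 0.0261, and 12.0% of its genes were under that value. CCN1 had no call in the fit over 13445 genes. It passed when edgeR was fitted anew on only the genes of that table (log2 fold change -0.315, edgeR adjusted p = 0.0154). That fit estimated the scaling and the spread between libraries again, and it called 2072 genes against 1104.

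Other genes commonly listed as YAP and TAZ targets were drawn into a second list of 41, of which 40 were found in the files (MARCKS was not matched) and 39 were tested (TNNT2 had too few reads). Of these, 12 fell and 2 rose in the knockdown, and 25 did not pass. Over all 13445 genes tested, 4.31% were called lower and 3.90% higher. The list's median log2 fold change was -0.27, against 0.01 over all genes. Like the other lists below, it was chosen with earlier results of these data known. Nothing is therefore read from its counts or its median.

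DDAH1, an enzyme that degrades methylated arginine, averaged 65.3 ± 2.63 CPM in the knockdown and 113.0 ± 8.22 CPM in the control (SD, n = 3 each, edgeR adjusted p = 0.00312). FGF2, a fibroblast growth factor, averaged 70.3 ± 5.21 CPM in the knockdown and 116.1 ± 2.73 CPM in the control (SD, n = 3 each, edgeR adjusted p = 0.00362). TGM2, a transglutaminase that cross-links matrix proteins, averaged 80.7 ± 3.24 CPM in the knockdown and 129.9 ± 4.50 CPM in the control (SD, n = 3 each, edgeR adjusted p = 0.00303).

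Among the others that fell were F3, IGFBP3, CCDC80, GAS6, DAB2 and ETV5, with log2 fold changes of -0.62 to -0.38. GAS6 was singled out after its values were seen because it is the ligand of AXL, and its log2 fold change of -0.62 (SE 0.11) had an adjusted p of 0.0207 with edgeR. The genes that rose were SGK1, a kinase induced by serum and glucocorticoids, and PMP22, a membrane protein of peripheral myelin. SGK1 had 150.5, 162.4 and 155.4 CPM in the knockdown and 66.1, 70.3 and 58.5 CPM in the control (log2 fold change 1.26, SE 0.09, edgeR adjusted p = 0.000918). PMP22 averaged 56.9 ± 10.3 CPM in the knockdown and 29.3 ± 3.94 CPM in the control (SD, n = 3 each, edgeR adjusted p = 0.0152). With a library left out the count of lower genes went down to 7, 9 and 7 without knockdown replicate 1, 2 and 3 and to 8, 6 and 7 without control replicate 1, 2 and 3. The call of PMP22 was lost without control replicate 1 or 2.

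**Figure D5:**
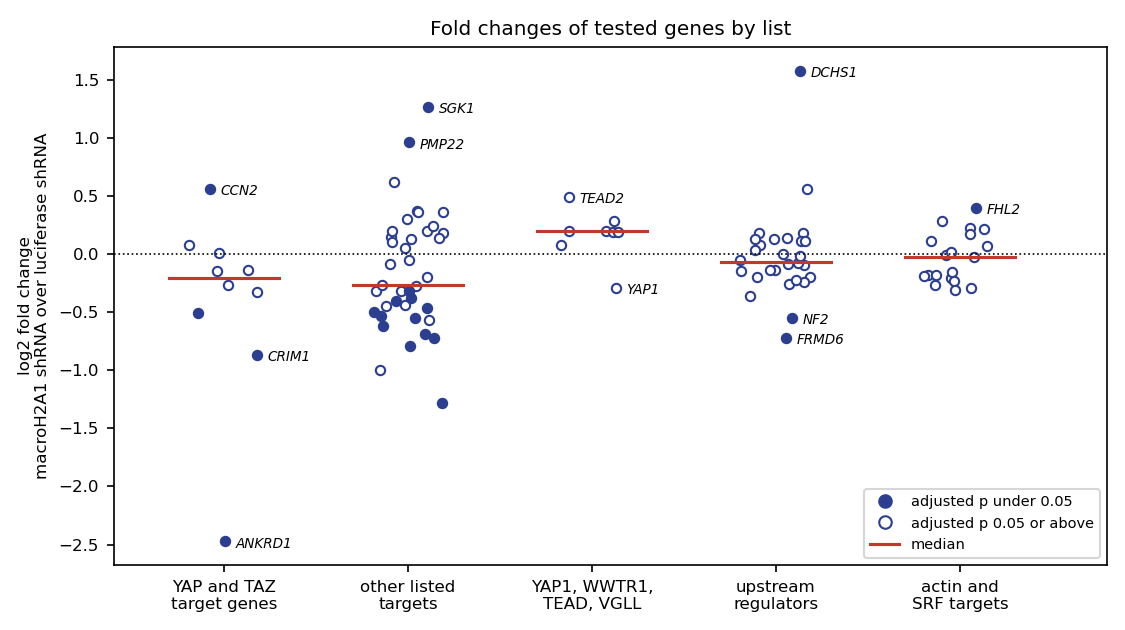
Log2 fold changes, macroH2A1 shRNA over luciferase shRNA (vertical axis), of the tested genes in 5 lists, filled where the adjusted p over all genes was under 0.05, with list medians as red lines. The median is -0.21 for the 10 target genes, -0.27 for the 39 other listed targets and 0.19 for the 8 genes of YAP1, WWTR1, TEAD and VGLL; the points are spread sideways for legibility.

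None of the 8 genes that encode YAP, TAZ, the TEAD proteins and their VGLL partners passed the threshold with edgeR over all genes. It was passed by 8.21% of all 13445 genes tested. YAP1 had 141.5, 161.6 and 139.5 CPM in the knockdown and 187.5, 170.5 and 184.8 CPM in the control (log2 fold change -0.29, SE 0.09, edgeR adjusted p = 0.0848). WWTR1 averaged 72.1 ± 5.71 CPM in the knockdown and 62.8 ± 3.76 CPM in the control (SD, n = 3 each), a log2 fold change of 0.20 (SE 0.09). TEAD1, the most abundant TEAD gene per length at 28.3 CPM per kilobase in the knockdown and 24.9 in the control, had a log2 fold change of 0.19 (SE 0.08). TEAD2 had 0.49 (SE 0.13), TEAD3 0.28 (SE 0.24) and TEAD4, with 30 counts in all in the knockdown and 28 in the control, 0.20 (SE 0.39). At an unadjusted p under 0.05 there were 3 of the 8, YAP1, TEAD1 and TEAD2, where 24.6% of all 13445 genes tested were under that value. The same 3 passed when edgeR was fitted anew on only the genes of the authors' deposited table. DESeq2 and limma-voom each called 0 of the 8.

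Upstream of YAP and TAZ, 3 of 28 regulators passed, where 8.21% of all 13445 genes tested did. NF2, or merlin, a membrane-linked activator of the Hippo kinases, fell to 112.0, 120.1 and 105.5 CPM in the knockdown, against 161.6, 168.7 and 164.9 CPM in the control (log2 fold change -0.55, SE 0.07, edgeR adjusted p = 0.00796). FRMD6, a FERM domain protein that acts beside it, averaged 162.4 ± 4.92 CPM in the knockdown and 267.8 ± 8.70 CPM in the control (SD, n = 3 each, edgeR adjusted p = 0.00211). DCHS1, a large protocadherin that binds FAT4 on neighbouring cells, rose to 42.2, 35.4 and 33.7 CPM in the knockdown, against 12.4, 11.6 and 13.4 CPM in the control (log2 fold change 1.58, SE 0.12, edgeR adjusted p = 0.00119). The 25 others, among them the kinase genes STK3, STK4 and LATS1, did not pass, and the list's median was -0.06.

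Close relatives of the members did not pass the threshold. Of 18 paralogs, 9 had enough reads to test and 0 were called, with edgeR, DESeq2 or limma-voom. With edgeR, 8.21% of all 13445 genes tested were called. At an unadjusted p under 0.05 with edgeR there were 5 of the 9, namely AMOT, CCN4, LIMD1, MERTK and PTPN21, where 24.6% of all genes tested were. The relatives given with values here were picked after these were seen. LATS1 had a log2 fold change of 0.18 (SE 0.08), AMOTL1 -0.02 (SE 0.07), LIMD1 -0.24 (SE 0.09) and PTPN21 0.32 (SE 0.10). CCN4, a member of the same secreted family as CCN1 and CCN2, had 5.89, 9.49 and 8.24 CPM in the knockdown and 3.45, 3.86 and 5.24 CPM in the control (log2 fold change 0.93, SE 0.27). MERTK, a receptor related to AXL, had 41 counts in the knockdown group and 13 in the control group.

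Of 19 genes of actin, its partners and targets of serum response factor, a set that overlaps with YAP and TAZ output in fibroblasts, 1 passed. The share over all 13445 genes tested was 8.21%. FHL2, a LIM domain cofactor, had 127.7, 126.6 and 127.8 CPM in the knockdown and 100.1, 98.7 and 91.5 CPM in the control (log2 fold change 0.40, SE 0.07, edgeR adjusted p = 0.0169), but the call was lost when any of the 6 libraries was left out, with log2 fold changes of 0.35 to 0.43. The median of the 19 was -0.03.

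Among genes with a mean of at least 10 CPM, those whose pattern over the 6 libraries came closest to that of ANKRD1 were AOX1, an aldehyde oxidase, COL11A1, a fibrillar collagen, and HAS2, a hyaluronan synthase. Their root mean square differences from ANKRD1, on log2 CPM centred over the libraries, were 0.33, 0.46 and 0.48. ANKRD1 itself, at 2.32 CPM in the knockdown and 13.1 CPM in the control on average, lies under that limit of 10 CPM. Genes as low as ANKRD1 were therefore not among the candidates. Closest to CCN2 were MCAM, CEMIP and PIGT, at 0.04, 0.04 and 0.05.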

How the data were processed

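For each of the 6 libraries the authors deposited whole-number counts by Ensembl gene, made with CASAVA 1.7, GSNAP and HTSeq on hg19 per the submitters' processing notes. RNA was depleted of ribosomal RNA and the dUTP protocol keeps strand, per the labels' protocols; the HTSeq strand setting is not given in the sources used here. All libraries ran in 1 lane. Lines that name no gene were left out. They made up 86.3% to 88.1% of the total over all lines, with 64.4% to 68.8% for lack of a unique alignment. A table of protein-coding genes deposited by the authors gives mean signal (counts over size factors), ratio, log2 ratio, p-value and adjusted p-value. The submitters' processing notes name DESeq 1.10.1. The direction of the ratio in that table was checked against the counts, and 2 columns of group means were not used.

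Counts were filtered with filterByExpr (minimum count 10), scaled with TMM and tested over all genes with edgeR 4.0.16 (glmQLFit, glmQLFTest, group as the only term) in R 4.3.3. DESeq2 1.42.0 and limma 3.58.1 (voom) were alternatives. The edgeR step was also run on simulated data. Those counts were drawn from the edgeR fit itself, so that run cannot show that the test suits these libraries. SE is the absolute log2 fold change over the square root of F. The members and lists were chosen with earlier results of these data known. Named genes are all members, up to 4 called genes in each direction per list, YAP1, WWTR1, the TEAD genes, MACROH2A1, and the 3 genes most similar to ANKRD1 and to CCN2; some genes that this rule or a list's calls would name are not reported here. Symbols, chromosomes and exon lengths came from tables on GRCh38, so no gene coordinates are given; promoter sequences are RefSeq's. In that annotation antisense genes overlap 2.49% of the exon length of CRIM1 and 1.30% of AXL, a pseudogene on the other strand 6.47% of PTPN14, and one on the same strand 3.12% of AMOTL2. A floor of 3 counts equals 0.471 to 0.797 CPM. Within a group, no pair of libraries was alike within sampling noise (chi-square 25.2 to 37.7 per degree of freedom).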

Additional observations from a re-analysis of the deposited data

How the results depend on the processing

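ANKRD1 and CRIM1 kept their calls in all 14 alternatives. MYOF kept its call in 13, in the leave-one-out fits with edgeR adjusted p of 0.0299 without control replicate 3 to 0.05 (rounded) without control replicate 2. The call of MYOF was lost with the replicate block (log2 fold change -0.51, edgeR adjusted p = 0.051). CCN2 lost its call there (0.56) and in 5 leave-one-out fits; the higher members then numbered 0, against 0 to 1 over the leave-one-out fits, and the lower members 3 in each of these. Among the members, YAP1, WWTR1 and the TEAD genes, directions turned for AMOTL2 (-0.008 with DESeq2, -0.044 to 0.036 with 1 library left out, negative without knockdown replicate 2) and TEAD4 (-0.035 to 0.487 with 1 left out, negative without control replicate 1), neither called. With 1 library left out, 225 to 303 genes were called higher and 198 to 262 lower, against 524 and 580, and the other listed targets gave 1 to 2 higher and 6 to 9 lower. Deviations of same-numbered libraries correlated at -0.23 to -0.02, and no knockdown library correlated best with the control library of its own number, so the numbers were not taken as pairs. With the replicate block 230 genes were higher and 186 lower, with 0 higher members and 7 lower other targets. With edgeR fitted anew, scaling included, on only the genes of the authors' deposited table, 993 genes were higher and 1079 lower. That fit gave 4 lower members (CCN1 added, log2 fold change -0.315), 7 higher other targets and 4 higher and 4 lower Hippo pathway genes, against 1 and 2. The cause was not tested beyond the change in genes and samples used. The alternatives were not run gene by gene for GAS6 or the paralogs. Other scalings moved the median of all genes by at most 0.0178. With 32 counts of ANKRD1 in the knockdown, depth limits its fold change.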
